A study of Mus musculus with 4 samples.

Results

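The homeostatic microglia genes are a set of 35 genes named for microglia of the healthy brain, taken from a list of symbols, and they made up 35 of the 21938 protein-coding genes annotated on the autosomes, X and Y. Methylation at each gene was read from the submitters' list of differing positions and their list of differing regions, inside the gene or within 10000 bp of it. Whole-genome bisulfite sequencing, which reads unconverted cytosines as methylated, was done on FACS-sorted microglia of untreated C57BL/6J mice, 3 months old. There were 2 WT and 2 IRF8KO samples; the labels do not say how Irf8 was inactivated, and they give neither sex nor litter, nor whether samples of a group came from separate mice, so the spread within a group may be technical. Both lists compare a numbered first group with a numbered second group, and no header ties a number to a genotype. Levels and differences are therefore given for the first and the second group, with differences coded as the first minus the second, and no genotype is assigned to either.

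Microglia are the resident macrophages of the brain, and they live from signals through the receptor Csf1r. At rest they express a set of surface receptors, transporters and secreted proteins. Some of these are lacking or held at low level in other brain cells and most other macrophages. Many of the genes for these proteins fall in expression when microglia are activated. IRF8 is a transcription factor of the myeloid lineage that binds DNA beside PU.1 at composite sites. Methylated CpGs are common in most of the genome and are sparse at active promoters and enhancers.

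Every level, difference, standard error (SE) and false discovery rate (FDR) given here comes from the authors' deposited tables. Levels run from 0 (no molecule methylated) to 1. The position list holds sites chosen for a high posterior probability of a difference, so a listed position need not pass the FDR threshold of 0.05. No value per sample was in these tables, which leaves the spread between samples unseen, and the number of reads behind each level is unknown. Methylation does not show whether the genes were expressed, and it gave no check of the cell sort. The window of 10000 bp around Tmem119 overlaps that around Selplg by 1981 bp, which hold 0 listed positions.

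The sequences of 5 regions are given 5′ to 3′ on the plus strand of GRCm38 (RefSeq GRCm38.p6). The first is the only one of the 15 regions at these genes that holds the ETS-IRF composite element (GGAA and GAAA 2 bases apart, on either strand). Its capitals mark that element, here on the minus strand. In the other 4 the capitals mark CpGs. These were taken by area score (the summed test statistics of a region), which grows with the number of cytosines, and not by size of difference: the Serpine2, Slc2a5 and second Slco2b1 regions have the 3 smallest absolute differences of the 15. They show the region of Slco2b1 nearest its start, the middle 300 bases of the Adora3 region on coding sequence, the longest region of Serpine2, and the Slc2a5 region, which differs in the other direction.
Slco2b1 intron, chr7:99702283-99702419: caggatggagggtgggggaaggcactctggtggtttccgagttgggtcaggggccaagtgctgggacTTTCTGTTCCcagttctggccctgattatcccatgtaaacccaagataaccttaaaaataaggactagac
Slco2b1 near its start, chr7:99709684-99709846: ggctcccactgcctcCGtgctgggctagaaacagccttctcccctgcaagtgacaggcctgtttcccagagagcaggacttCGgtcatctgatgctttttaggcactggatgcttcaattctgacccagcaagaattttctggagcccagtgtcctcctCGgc
Adora3 coding sequence, chr3:105904837-105905136: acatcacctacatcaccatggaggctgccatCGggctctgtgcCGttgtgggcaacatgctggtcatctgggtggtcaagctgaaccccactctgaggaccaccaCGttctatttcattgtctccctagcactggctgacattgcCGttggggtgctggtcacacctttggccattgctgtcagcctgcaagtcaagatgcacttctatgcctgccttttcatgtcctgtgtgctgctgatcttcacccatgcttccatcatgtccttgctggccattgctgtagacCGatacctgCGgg
Serpine2 intron, chr1:79832939-79833176: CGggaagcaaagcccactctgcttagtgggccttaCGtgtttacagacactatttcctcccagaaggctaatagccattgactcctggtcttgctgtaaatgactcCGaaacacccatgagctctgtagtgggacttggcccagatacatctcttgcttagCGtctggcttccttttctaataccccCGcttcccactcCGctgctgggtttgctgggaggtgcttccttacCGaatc
Slc2a5 intron, chr4:150132784-150132906: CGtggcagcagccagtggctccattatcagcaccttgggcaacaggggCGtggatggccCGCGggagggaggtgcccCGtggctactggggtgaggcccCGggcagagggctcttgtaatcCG

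The regions hold CpGs at very different density. The Slco2b1 region with the composite element has 1 CpG in 137 bases, although 4 cytosines were counted in it. The Slc2a5 region has 7 CpGs in 123 bases, and the Serpine2 region has 7 in 238. Of the 15 regions, 6 held fewer than 3 reference CpGs, and 37.7% of all 3389 regions in the deposited list did so.

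Regions lay at 9 of the 35 genes (25.7%). Over all protein-coding genes the share with a region was 9.19%. Longer genes more often have one, so each gene was also set beside the 200 protein-coding genes nearest to it in length. Pooled over the 35 genes, with repeats, 10.1% of those genes had a region. With genes split by length into 10 equal groups, the share was 2.19% in the shortest group and 26.7% in the longest. None of the 9 homeostatic genes in the 4 shortest groups had a region. A region lower in the first group was present at 7 genes (20.0%), against 4.69% of all genes and 5.27% of those of like length. A region higher in the first group was present at 2 genes (5.71%), against 5.17% and 5.59%. The set was drawn up with earlier results of these data known, so these shares describe it and no test was made.

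**Figure D1:**
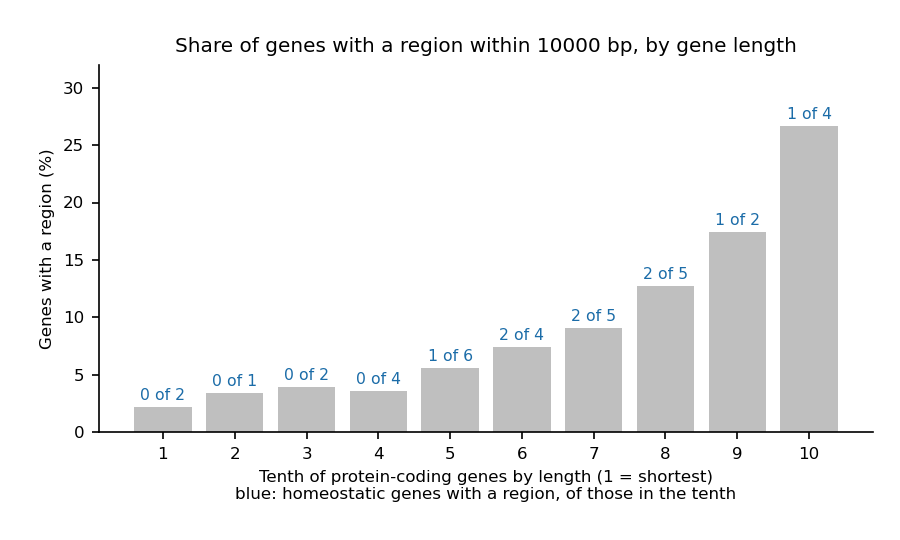
Share of protein-coding genes with a region within 10000 bp (bars, percent) in each of 10 groups of equal size by gene length, with the number of homeostatic genes that have a region, of those in that group, written above each bar. The share is 2.19% for the shortest and 26.7% for the longest genes, and the 9 homeostatic genes with a region lie in groups 5 to 10.

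A listed position was present at 27 of the 35 genes (77.1%), close to the shares of 64.1% over all genes and 64.9% over genes of like length. Positions with an FDR under 0.05 occurred at 12 genes (34.3%), against 30.8% and 31.5%, so that by this count the set was near the background. Split by direction, such a position lower in the first group lay at 10 genes (28.6%), against 16.4% and 18.2%. One higher in the first group lay at 3 genes (8.57%), against 20.5% and 20.8%. Siglech, Ltc4s, Golm1, Fscn1, Ecscr, P2ry6, Il34 and Lag3 had no listed position in their windows. Positions that are not listed have no value here, so equal methylation was not shown for these 8 genes.

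Of the 613 listed positions at the 35 genes, 390 were lower and 223 (36.4%) higher in the first group. In the whole list 61.9% were higher. Neighbouring positions share a fitted difference, so positions within 500 bp were also counted as 1 cluster. The 107 clusters comprised 68 lower and 39 higher ones (36.4% higher), against 65.4% higher over all clusters. Fewer of the positions passed the FDR threshold than in the whole list: 52 of 613 (8.48%) against 18.7%. Their median SE of 0.102 was close to the 0.103 of the whole list, their median absolute difference was 0.315 against 0.329, and 62.8% had a site-specific dispersion in each group against 46.4%. The rest carried a dispersion value shared by many sites in at least 1 group. Of the 52 positions past the threshold, 43 were lower and 9 higher. Of these 52, 41 (78.8%) carried the shared dispersion, against 65.2% of all such positions, and with site-specific dispersion alone 6 genes in place of 12 had one (Adora3, Slco2b1, Nav3, Tanc2, Cmtm6 and Cd164). Reference CpGs held 77.3% of the 613 positions, but 28 of the 52 past the threshold (53.8%) lay off them, against 27.7% in the whole list; what these off-CpG positions measure is not recorded in the tables. Counting reference CpGs alone, 8 genes had a position past the threshold, without Cst3, Sparc, Entpd1 and Il10ra. The share over all genes was not recounted under either limit, so neither drop can be set beside a background. Both bases of 197 CpGs at the set were listed with the same fitted levels: both passed at 2 of these CpGs and only 1 base at 16.

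**Figure D2:**
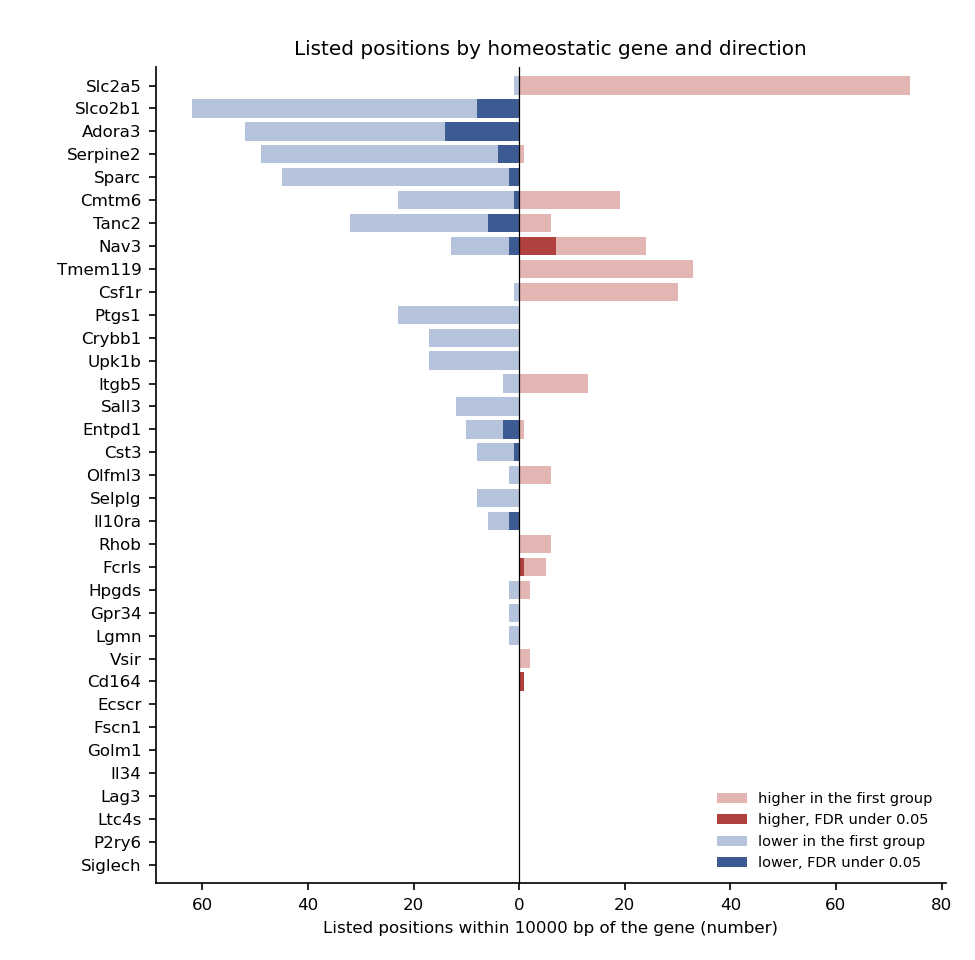
Number of listed positions within 10000 bp of each of the 35 genes, to the left where lower and to the right where higher in the first group, with dark parts for an FDR under 0.05. Of the 27 genes with a listed position, 12 lie wholly to the left and 5 wholly to the right: Slco2b1, Adora3 and Sparc are among the former and Tmem119 among the latter.

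The direction was mostly uniform within a gene. All listed positions were lower at 12 genes and all were higher at 5. Of these, Tmem119, Gpr34, Cst3, Sall3, Crybb1, Rhob, Lgmn, Vsir and Cd164 had a single cluster or position. Neighbouring positions share a fitted difference, so 1 direction there says little about the gene as a whole. Of the 10 genes with both, Slc2a5 (74 of 75 higher), Csf1r (30 of 31 higher), Serpine2 (49 of 50 lower) and Entpd1 (10 of 11 lower) had 1 position against the rest. Only Cmtm6, Nav3, Tanc2 and Hpgds, among the 35, had more than 3 positions or equal numbers on the lesser side. Positions within 1000 bp of the start of a protein-coding transcript of the gene were listed only at Adora3 (32 positions) and Sparc (7 positions).

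The 15 regions comprised 13 lower and 2 higher in the first group. The share higher was 13.3%, against 53.3% of all regions. Adora3, Slco2b1 and Serpine2 had 3 regions each, all lower, so the 15 are not independent and no interval is given. The 13 lower regions had a median deposited level of 0.418 in the first and 0.796 in the second group. All lower regions of the deposited list had medians of 0.332 and 0.772. The median absolute difference over the 15 was 0.349, against 0.405 over all regions, and they were shorter, with a median of 120.0 against 199.0 bp and of 6.0 against 9.0 cytosines. A position with an FDR under 0.05 lay in 9 of the 15 (60.0%), against 77.9% of all regions. Introns alone held 10 of them, and 13 of the 15 overlapped the gene itself.

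**Figure D3:**
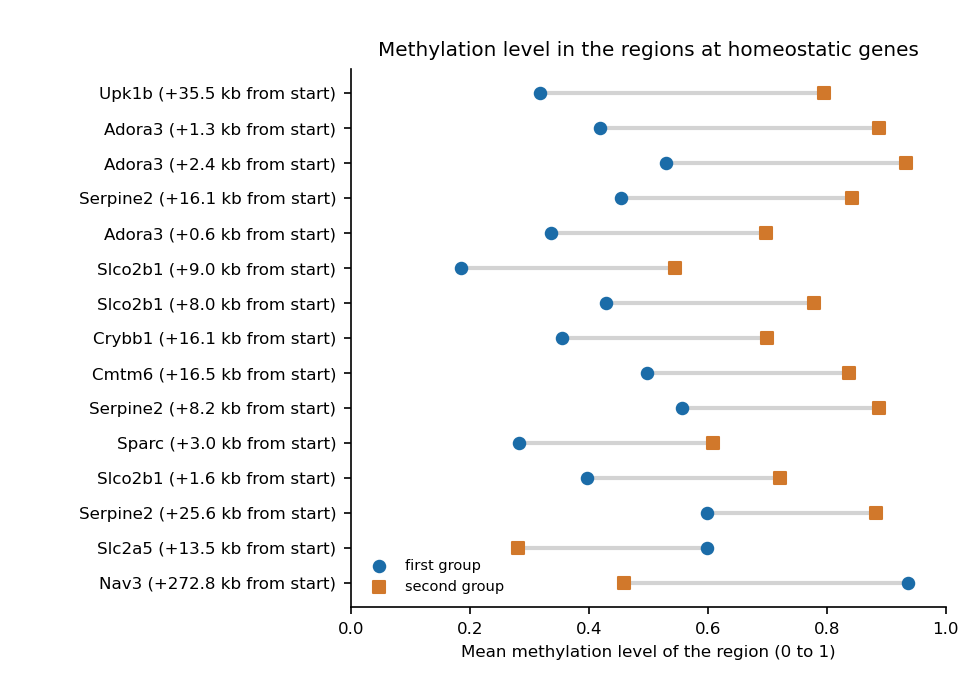
Mean methylation level (0 to 1) of the 15 regions in the first group (blue circles) and the second group (orange squares), labelled by gene and distance of the region's midpoint from the start of the RefSeq gene. In 13 regions the first group is lower, by 0.284 to 0.478, and in the regions of Slc2a5 and Nav3 it is higher.

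Among the 10 receptors and ligands, Adora3 alone had a region, and 3 genes (Adora3, Il10ra and Fcrls) had a position with an FDR under 0.05. Adora3, which encodes the adenosine A3 receptor (ENSMUSG00000000562.5, chromosome 3, 105870858 to 105908926), had 3 regions, all lower in the first group. The first (105904808 to 105905167) lies on coding sequence, its midpoint 566 bp past the RefSeq start, and holds the Adora3 sequence printed above. Its deposited level was 0.336 in the first and 0.698 in the second group, a difference of -0.362 over 24 cytosines. The second (105905602 to 105905913), on an exon without annotated coding sequence there, had levels of 0.418 and 0.888. The third (105906759 to 105906878), in an intron, had 0.529 and 0.933. All 52 listed positions at Adora3 were lower in the first group, and 14 of them had an FDR under 0.05, the most of any gene of the set. The smallest FDR, 8.78e-09, belonged to position 105905603, with a difference of -0.551, an SE of 0.0761 and the shared dispersion. The other base of that CpG, with the same fitted levels and a site-specific dispersion, had an SE of 0.139 and an FDR of 0.0584. Adora3 shares this stretch with gene models of Tmigd3, which start further upstream, so the regions cannot be credited to Adora3 alone.

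At Il10ra, the ligand-binding chain of the interleukin 10 receptor, all 6 listed positions were lower in the first group and 2 had an FDR under 0.05. These lie in an intron 5418 bp and 5412 bp past the start, off reference CpGs, with deposited levels of 0.427 and 0.808 and an FDR of 0.0233. Fcrls, a surface protein related to Fc receptors, went the other way, with all 5 positions higher in the first group. Its position at 87261409 on chromosome 3, an intronic CpG 2356 bp past the start, had levels of 0.832 and 0.326, a difference of 0.506 with an SE of 0.0908 and an FDR of 0.000104. The C of the same CpG, with the same fitted levels, had an SE of 0.152 and an FDR of 0.335. The base past the threshold carried the shared dispersion and its partner a site-specific one, so that the call at Fcrls rests on 1 strand of 1 CpG.

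Csf1r, the receptor for CSF1 and IL-34 on chromosome 18, had 31 listed positions and no region. A cluster of 25 positions was centred at -11574 bp from the RefSeq start, with median deposited levels of 0.606 in the first and 0.265 in the second group and a median difference of 0.346 (median SE 0.117). A further 5 positions, at -4018 bp and in an intron of longer transcripts, had median levels of 0.914 and 0.605. All 30 were higher in the first group, but the smallest FDR among them was 0.262. The remaining position, 35624 bp past the start and also in the gene Hmgxb3, was lower, with levels of 0.422 and 0.818 and an FDR of 0.209. At Gpr34, a receptor for lysophosphatidylserine, 1 CpG was listed with levels of 0.483 and 0.834 and an FDR of 1.0. That CpG also lies in the gene Cask. Vsir, an immune checkpoint protein, had 2 positions with 0.682 and 0.401 and an FDR of 1.0, upstream of its start and also in the gene Cdh23. Neither Gpr34 nor Vsir passed the threshold. Siglech, P2ry6, Lag3 and the Csf1r ligand gene Il34 had none.

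P2ry6, a receptor for UDP, lay just past the limit of the window. A region on chromosome 7 from 100984929 to 100985308 begins 10280 bp outside the GENCODE gene, and within 10000 bp of the longer RefSeq gene. Its deposited levels were 0.411 in the first and 0.802 in the second group over 21 cytosines, and 13 of its positions had an FDR under 0.05 (smallest 0.000604). Nearest inside the limit was the Upk1b region, 8422 bp outside its gene. With RefSeq gene bounds, 10 genes had a region and 14 had a position with an FDR under 0.05, the additions being P2ry6 and, by position only, Gpr34. Shares over all genes were not recounted with these bounds.

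Both transporters had regions, in opposite directions. Slco2b1, an organic anion transporter (ENSMUSG00000030737.17, chromosome 7, 99657804 to 99711340), had 62 listed positions, all lower in the first group. Its 3 regions lie in introns. The region nearest the start (99709684 to 99709846, midpoint 1575 bp past it) had deposited levels of 0.396 in the first and 0.721 in the second group over 14 cytosines. The region at 99703316 to 99703396 had 0.428 and 0.778 over 7 cytosines. The region with the composite element (99702283 to 99702419, 8989 bp past the start) had levels of 0.185 and 0.544, the first being the lowest first-group level of the 15, and 3 of its 4 cytosines had an FDR under 0.05. The smallest FDR at the gene lay outside the regions, in the intron at 99704370, where levels of 0.231 and 0.679 gave a difference of -0.448 (SE 0.0493, FDR 8.05e-15). That position lies off a reference CpG and carried the shared dispersion. A CpG of the same cluster with the same fitted levels and site-specific dispersion had FDRs of 0.754 and 0.441 at its bases. All 3 regions also fall in the gene model Gm34280. Among genes of like length, 17.0% had a region.

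Slc2a5, the fructose transporter GLUT5 (ENSMUSG00000028976.10, chromosome 4, 150119283 to 150144169), had the most listed positions of the set, 75, and 74 of them were higher in the first group. The region (150132784 to 150132906), in an intron 13501 bp past the start, had deposited levels of 0.598 in the first and 0.280 in the second group, a difference of 0.318 over 16 cytosines. It is the CpG-dense Slc2a5 sequence above. Flanking positions extend it to a cluster of 47 over 547 bp. Clusters of 13 positions at -9952 bp and of 14 positions 19250 bp past the start had median differences of 0.302 and 0.301. No position at Slc2a5 had an FDR under 0.05, the smallest being 0.177, so the call here rests on the region list alone.

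**Figure D4:**
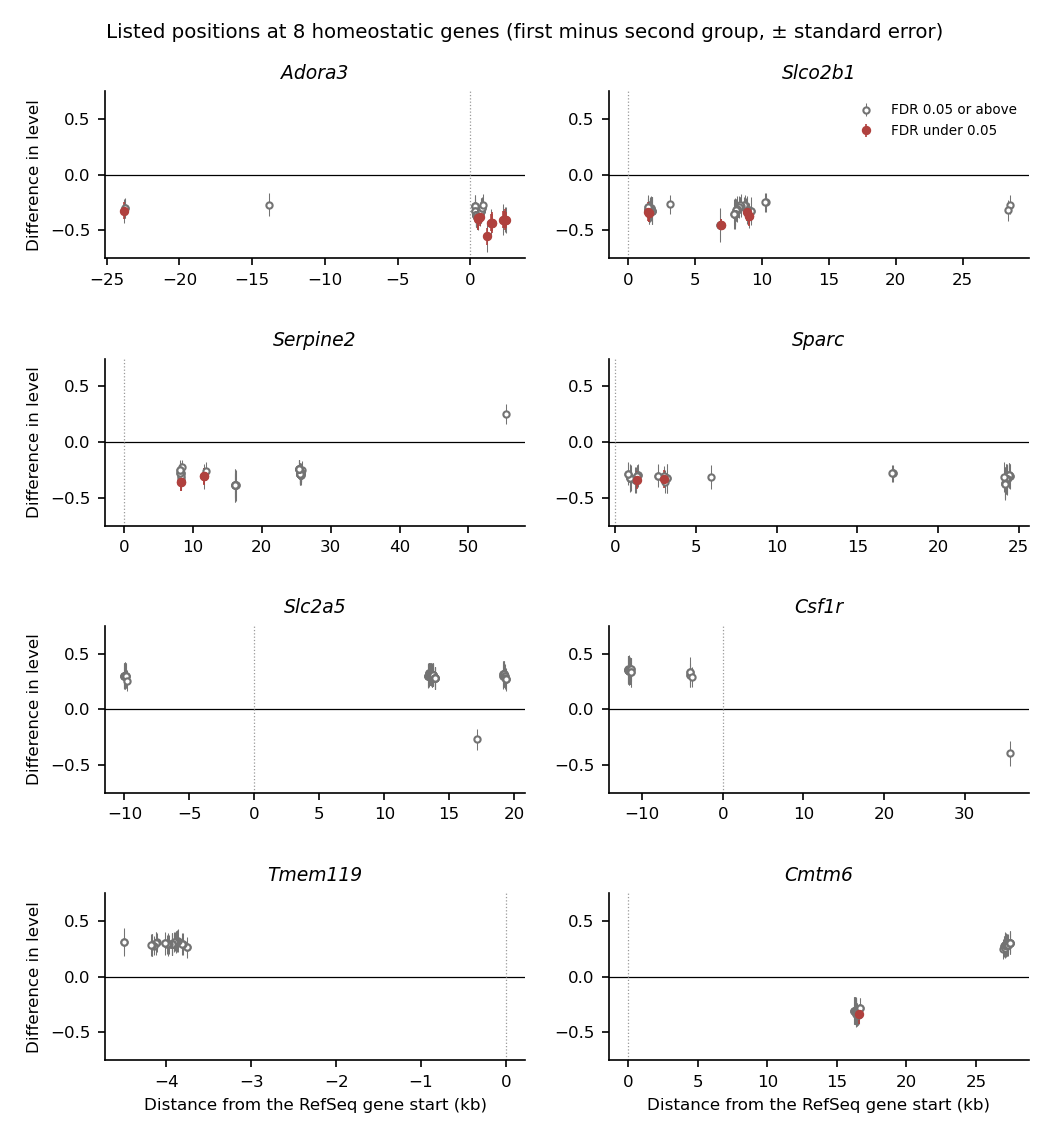
Difference in level of each listed position (first minus second group, with its deposited standard error as bars) against distance from the start of the RefSeq gene in kb, at 8 genes; red points have an FDR under 0.05. Positions at Adora3, Slco2b1 and Sparc lie below 0 throughout, those of Slc2a5, Csf1r and Tmem119 lie above 0 except for 1 position each at Slc2a5 and Csf1r, and Cmtm6 has 1 cluster on each side.

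The 5 genes of secreted, matrix and protease proteins had 4 regions at 2 genes, all lower in the first group, and 106 of their 113 listed positions were lower. Serpine2, an inhibitor of serine proteases (ENSMUSG00000026249.10, chromosome 1, 79794197 to 79861180), had 3 intronic regions. The longest (79832939 to 79833176), printed above, had deposited levels of 0.599 in the first and 0.883 in the second group over 17 cytosines, and none of its positions had an FDR under 0.05. The other regions (79842559 to 79842622 and 79850418 to 79850479) had levels of 0.454 and 0.843, and of 0.556 and 0.887. The last holds 2 positions with an FDR under 0.05 (smallest 0.045), and 2 more lie between the regions, at a smallest FDR of 0.0198.

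Sparc, a calcium-binding matrix protein (ENSMUSG00000018593.13, chromosome 11, 55394500 to 55423183), had 45 positions in 5 clusters from near the start to the 3′ end, all lower in the first group. The region (55417007 to 55417084) is intronic, 3035 bp past the RefSeq start, with deposited levels of 0.282 and 0.609 over 4 cytosines, the fewest in the list. The 16 positions 1251 bp past the start had median levels of 0.169 and 0.472, and 1 of them, off a reference CpG, had an FDR of 0.0279. A cluster of 18 positions over coding sequence, 24269 bp past the start, had 0.538 and 0.873 with no FDR under 0.533. The sizes were close along Sparc, with median differences from -0.332 to -0.282 over its 5 clusters, while the threshold was passed at 2 positions only.

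Cst3 encodes the protease inhibitor cystatin C, one of the most abundant transcripts of microglia. Its 8 listed positions lay upstream, around -4014 bp from the start, and all were lower in the first group. Position 148879381 on chromosome 2 had levels of 0.284 and 0.837, a deposited difference of -0.553 (SE 0.105) and an FDR of 0.000435. It lies off a reference CpG and carried the shared dispersion, and the other 7 did not pass. Olfml3, a secreted glycoprotein, had 8 positions with none past the threshold, 6 of them higher and 2 lower, with all but 1 of them before the start. The 2 lower positions also lie in the gene model Gm10964, and the 5 higher ones upstream in Gm10964 and Hipk1. Lgmn, a lysosomal protease, had 1 CpG listed, with levels of 0.352 and 0.613 and an FDR of 0.622.

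Of the 8 surface and adhesion genes, Cmtm6 and Upk1b had a region. At Cmtm6, a membrane protein that stabilises PD-L1 (ENSMUSG00000032434.9, chromosome 9, 114731116 to 114749344), the region (114747592 to 114747770) lies on the UTR at the 3′ end. Its deposited levels were 0.498 in the first and 0.838 in the second group over 6 cytosines, and 1 position had an FDR of 0.0492. A second cluster of 19 positions beyond the 3′ end, at the neighbouring gene Cmtm7, was higher in the first group, with median levels of 0.490 and 0.206 and no FDR under 0.179. At Upk1b, a tetraspanin, the region (chromosome 16, 38764709 to 38764762) had levels of 0.318 and 0.796, the largest absolute difference of the 15 (-0.478), over 4 cytosines. It falls inside the neighbouring gene B4galt4 and holds no position with an FDR under 0.05.

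Tmem119, a membrane protein used as a marker of microglia (ENSMUSG00000054675.5, chromosome 5, 113793729 to 113800516), had no region. It had a single cluster of 33 listed positions over 738 bp, at -3935 bp from the RefSeq start, all higher in the first group. Median deposited levels were 0.827 in the first and 0.521 in the second group, the differences ran from 0.264 to 0.324, and the smallest FDR was 0.141. Selplg, the ligand of P-selectin, is the next gene of the set on the chromosome and had the other direction. Its 8 positions were all lower, and 5 of them in an exon had levels of 0.310 and 0.802 with a smallest FDR of 0.067. Neither gene passed the threshold.

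Entpd1 (CD39), which breaks down extracellular ATP, had 3 positions with an FDR under 0.05, all intronic, off reference CpGs and lower in the first group. The first, at 40671086 on chromosome 19, had levels of 0.324 and 0.742, a deposited difference of -0.418 (SE 0.0841) and an FDR of 0.00158. Cd164, a sialomucin, had a single listed position, a CpG at -3521 bp from the start. It was higher in the first group, with levels of 0.480 and 0.162 and an FDR of 0.0353. Itgb5, an integrin chain, had 16 positions, 13 of them higher, and none passed (smallest FDR 0.0801). Ecscr, a surface protein better known from endothelium, had none.

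The lipid mediator enzymes had no region and no position past the threshold. At Ptgs1 (cyclooxygenase 1) all 23 listed positions were lower in the first group. The larger of its 2 clusters, 19 positions on and beside coding sequence, had median deposited levels of 0.294 and 0.673, but a smallest FDR of 0.602 with a median SE of 0.137. Hpgds, a prostaglandin D synthase, had 2 positions each way with an FDR of 1.0, and Ltc4s, the leukotriene C4 synthase, had none listed.

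In the group of cytoskeletal, transcription and other genes, Nav3 and Crybb1 had a region. Nav3, a neuron navigator protein, is the longest gene of the set at 774946 bp, and 35% of genes of like length had a region. The region of Nav3 (chromosome 10, 110182865 to 110182956) lies deep in an intron, 272812 bp past the start. It was higher in the first group, with deposited levels of 0.936 and 0.459 over 4 cytosines. Its smallest FDR, 4.62e-07, belonged to position 110182866, off a reference CpG and with the shared dispersion. A CpG of the region with the same fitted levels and site-specific dispersion had FDRs of 0.106 and 0.194 at its bases. The 37 listed positions at Nav3 fell in 26 clusters. Of the 9 positions at Nav3 past the threshold, 7 were higher and 2 lower, the only gene of the set with both. Crybb1, a crystallin gene also expressed in microglia, had 17 positions in 1 cluster beyond its 3′ end, all lower. The Crybb1 region (chromosome 5, 112270623 to 112270675) lies 1038 bp outside the gene, and the nearest coding gene start is that of Tpst2. Its levels were 0.354 and 0.70 over 7 cytosines, and the smallest FDR at the gene was 0.0564.

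Tanc2, a scaffold protein, had no region but 6 positions with an FDR under 0.05, all lower in the first group. They are scattered over the gene, which spans chromosome 11 from 105589986 to 105929304. Among genes of like length, 90.5% had a position with an FDR under 0.05. Position 105602758 had the smallest FDR of the whole set, 7.48e-17, with deposited levels of 0.155 and 0.598 (difference -0.443, SE 0.046). It carried the shared dispersion. The other strand of that CpG, with the same fitted difference and a site-specific dispersion, had an SE of 0.149 and an FDR of 0.709. At Sall3, a zinc finger factor, all 12 positions in an intron were lower, with median levels of 0.208 and 0.549 and a smallest FDR of 0.142. Rhob, a small GTPase, had 6 positions at -7566 bp from its start, all higher, with 0.561 and 0.269 and a smallest FDR of 0.262. Golm1, a Golgi membrane protein, and Fscn1, which bundles actin, had none.

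The composite element was present in 1 of the 15 regions (6.67%), or 1 of the 13 lower ones (7.69%), against 9.38% of all regions and 17.6% of all lower ones. In windows of 137 bp around the midpoints of all regions, the share was 5.37%, and 9.99% for the lower ones. That length was taken from the Slco2b1 region that holds the element, so its own match was kept. In windows of 500 bp around the midpoints, 1 of the 15 held the element (6.67%), against 15.7% of all regions. For the lower ones the shares were 7.69% and 28.8%. None of the 15 held the IRF element of GAAA repeated after 2 bases, which 4.84% of all regions hold. The ETS core GAGGAA, searched on both strands and free to overlap the composite element, lay in 3 (20.0%), against 26.0%. The IRF element and ETS core were counted over whole regions. Those of the set were shorter (median 120.0 against 199.0 bp) and left less room for a match. A match is a run of letters and says nothing of binding.

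Of 20 other genes of microglial identity, such as P2ry12, Aif1 and Bin1, 10 had a region and 14 a position with an FDR under 0.05. Over all protein-coding genes these shares were 9.19% and 30.8%, and in the set of 35 they were 25.7% and 34.3%. The 20 genes were not set beside genes of like length. Lower regions lay at 9 of them and higher ones at 3. Counted gene by gene, with shared regions repeated, 27 regions were lower and 4 higher in the first group. Most regions were thus lower there as well, as in the set, where 13 were lower and 2 higher. The lean to lower regions was therefore not particular to the set. Some of these genes share a region: P2ry12 with P2ry13, and C1qa, C1qb and C1qc with each other. The largest area scores belonged to Sall1 (456.0), Bin1 (350.0) and Aif1 (176.0), with deposited differences of 0.363, -0.575 and -0.478.

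Markers of other cells the sort could hold were counted in the same way. Over all protein-coding genes 9.19% had a region, and 26.7% of the longest group. The marker lists are short and were not set beside genes of like length. Regions lay at 2 of 8 border macrophage genes (5 higher and 1 lower in the first group, at Cd163 and Mrc1), 1 of 5 monocyte genes (Plac8, lower), 0 of 5 neutrophil genes and 1 of 4 lymphocyte genes (Cd79a, higher). They lay at 3 of 4 endothelial genes (6 regions at Flt1, Cdh5 and Pecam1, all lower), 1 of 4 astrocyte genes (Slc1a3, lower), 1 of 4 neuron genes (Syt1, higher) and 0 of 4 oligodendrocyte genes. Of 8 microglial markers, 4 of them in the set of 35, 3 had a region. These were Cx3cr1, P2ry12 and Sall1, none of them in the set, with 3 regions higher and 5 lower in the first group. Cell composition was not measured, and its part in the differences was not tested.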

How the data were processed

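Bisulfite libraries of sorted microglia were made with the Pico Methyl-Seq kit, per the labels' protocols. Reads were trimmed and aligned by the authors with Trim Galore and Bismark on mm10, per the submitters' processing notes; the caller is not given in the sources used here. Per the file headers, the deposited region table holds a mean level per numbered group as a fraction, the difference and area score, and the number of cytosines as a count. The deposited site table holds, per the file headers, fitted levels and dispersions as fractions, the difference with its standard error and test statistic as scores, a p-value with its FDR, and a posterior probability (a fraction, smallest 0.95). Unused columns with values per sample numbered 0.

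Genes were taken from GENCODE M21 on GRCm38, with starts of RefSeq genes (all 35 found) as the origin of distances. Windows were the gene plus 10000 bp. The 200 non-member genes nearest in log length gave the like-length share. Row numbers of the site table gave the tested positions. A dispersion shared by many sites (0.0571 and 0.0558) was taken as not the site's own. Motifs were searched on both strands of RefSeq GRCm38.p6. No test was added: with 2 samples a group an exact two-sided test cannot go below 0.333. Python 3.11.15, pandas 2.3.3 and scipy 1.17.1 were used, and window counts and motif search were tested on simulated data. The members, lists and settings were chosen with earlier results of these data known. All 35 genes are named, and genes of other lists by largest area score. Sequences were shown for a region with the composite element and then by area score.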

Additional observations from a re-analysis of the deposited data

How the results depend on the processing

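Of 60 alternatives, 45 left a result close to its reported value (for counts, within a factor of 1.5), 15 moved it and 0 reversed it. RefSeq gene bounds were added after the data were seen and moved nothing that far. Of the results varied, only the share of regions higher in the first group has a direction, so only that share could be reversed. No paired analysis was possible because only group values were deposited in the tables used; leaving out each replicate and a coverage minimum of 10 reads were not run for the same reason. The 9 genes with a region became 18 with a 50000 bp flank, 4 with at least 10 cytosines per region and 3 with an absolute difference of at least 0.4. The 12 genes with a position past the threshold became 22 with a 50000 bp flank, 7 with an FDR under 0.01, 6 under 0.001 and 6 with a dispersion of the site's own. The regions' median absolute difference, 0.349, moved to 0.321 when 10 or more cytosines were required and to 0.473 with a difference of at least 0.4, both over 4 regions. The composite element, in 1 region, was in 0 with at least 5 or 10 cytosines, a difference of at least 0.4 or at least 3 reference CpGs; the IRF element gave 0 and the ETS core 3. The wider flank takes in more sequence, and the other limits admit fewer regions or positions by construction. Shares over all genes and over genes of like length were not recounted at these settings. The member counts there have no background beside them. The share of regions higher in the first group stayed between 9.09% and 28% in the alternatives run. The like-length share of 10.1% was 11.6% with genes nearest in tested positions and 10.5% with 50 genes per member. Depth behind the levels is unknown, which limits every single-position value.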

Other observations

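Listed positions made up 1.03% of the tested positions in the windows of the 35 genes, with a median over genes of 0.767%. In genes of like length the pooled share was 0.542% and the median 0.167%, and over all protein-coding genes 0.537% and 0.175%. The number of tested positions is read from the row numbers of the site table by interpolation. The highest shares were at Adora3 (4.44%), Slc2a5 (4.40%), Cmtm6 (3.73%), Sparc (3.59%) and Slco2b1 (3.52%), and Tmem119 had 2.66%. These shares count positions that mostly did not pass the FDR threshold: over the set the median FDR was 0.615, against 0.492 in the whole list, and 351 of the 613 positions had an FDR above 0.5.

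At some CpGs both strands carried the same fitted difference with different standard errors, and only 1 strand passed the threshold. This was so at 16 CpGs in 6 genes (Adora3, Nav3, Slco2b1, Tanc2, Fcrls and Cmtm6). The passing base carried the shared dispersion at 9 of them and a site-specific one at 7.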
